A study of Mus musculus with 319 samples.

Results

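Adh1, Lypd1, Fabp5, Cbln4, Fam221a and Vopp1 were each positive, with 5 or more reads, in a minority of sorted mouse thymic tuft cells, and they are described here as state genes. They are 6 of the 48435 named genes in the deposited count tables, and all 6 were found there. The members were chosen by name from earlier values of the same tables (how many cells held each gene, which genes shared cells, and how batches differed), so their levels, shares and co-detection are given as descriptions without a test. In the batch 2 cells labelled Aire-/- they were held by 18.8% to 40.6% of cells, in WT cells of the same batch by 11.2% to 38.2%, and in the WT sets of batch 1 by 6.90% to 37.9%.

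Each sample was a well of a plate that received 1 sorted cell, and its polyadenylated RNA was read by Smart-seq2, a full-length method that uses no molecular identifiers. ERCC spike-in RNA was added to the wells. Cells came from digested, pooled thymi of naive mice and the gate took EPCAM+ MHCIIlo Flare25+ cells that were negative for CD45, CD11c and UVBlue. Every mouse, the WT ones included, was Flare25/Flare25, that is homozygous for a reporter of Il25, a cytokine that tuft cells make. The mutant genotype was Flare25/Flare25 Aire-/- on strain C57BL/6.Il25.Aire, with 96 wells, all in batch 2. The WT genotype was Flare25/Flare25 on strain C57BL/6.Il25, with 92 wells in batch 2, 95 wells of a set named June29 and 31 wells of a set named June5, both of batch 1. Mice were 6 weeks old except for a 5-week label on 1 Aire-/- sample, and sex was labelled as mixed. The labels name no animals, so each of the 4 sets is 1 pool and 1 sample, cells gave no p-value, and an interval below covers counting error only.

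After filtering, 96 of 96 cells labelled Aire-/-, 89 of 92 WT batch 2 cells, 87 of 95 June29 cells and 29 of 31 June5 cells were kept, 301 in all. Their median gene reads were 638298, 566923, 1150167 and 539655 in that order. All 301 cells had 5 or more reads of at least 2 of 30 tuft core markers, whose sum had a median of 40725, 35743, 33699 and 36682 CPM, reads scaled to 1000000 gene reads, in the same order. The list includes the keratins Krt8 and Krt18, positive in 100% and 98.7% of all cells, so 2 markers do not settle that a cell is a tuft cell. At least 2 markers of a B cell, thymocyte or dendritic cell and macrophage list were met by 9, 7, 25 and 11 of these cells, and the part of such cells in the results was not tested except where a value without them is given. Aire, the gene targeted in the mutant and a regulator of tissue antigen expression in medullary epithelium, stood at 152.7 CPM in the cells labelled Aire-/- against 18.9 CPM in WT batch 2, 11.2 in June29 and 7.84 in June5. Reads of the gene therefore did not mark the deletion, the deleted part is not given in the sources used here, and the cells are called by their label. Xist, the RNA that coats an inactive X, had 5 or more reads in 86 of 96 cells labelled Aire-/-, 43 of 89 WT batch 2 cells, 1 of 87 June29 cells and 7 of 29 June5 cells. A Y-linked gene had them in 0, 31, 67 and 13 cells in that order. The sets thus differed in sex-linked reads as well as in genotype or batch, which goes against a mixed pool in the cells labelled Aire-/- and in June29.

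Tuft cells are chemosensory epithelial cells that share a taste-type signalling cascade with taste cells: a receptor acts through a G protein, phospholipase C and the calcium channel of the endoplasmic reticulum to open the channel Trpm5. They also make mediators such as leukotrienes and interleukin-25, and in the thymic medulla they are a rare epithelial type. The 6 genes belong to no common pathway. Adh1 is the class I alcohol dehydrogenase, which oxidises ethanol and retinol. Fabp5 is the epidermal fatty acid binding protein, a carrier of fatty acids and retinoic acid. Lypd1 is a membrane-anchored protein of the Ly6 family, members of which bind nicotinic acetylcholine receptors. Cbln4 is a secreted protein of the cerebellin family, known as an organiser of synapses. Vopp1 is a membrane protein of intracellular vesicles, and the function of Fam221a is little known.

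Positions are those of GENCODE M21 on GRCm38. Adh1 (ENSMUSG00000074207.10) lies at chr3:138260991-138290698 on the plus strand, Fabp5 (ENSMUSG00000027533.10) at chr3:10012548-10016607 on the plus strand, Lypd1 (ENSMUSG00000026344.9) at chr1:125867622-125913101 on the minus strand, and Cbln4 (ENSMUSG00000067578.3) at chr2:172036233-172043466 on the minus strand. Fam221a (ENSMUSG00000047115.15) at chr6:49367739-49390539 on the plus strand and Vopp1 (ENSMUSG00000037788.14) at chr6:57727807-57825159 on the minus strand lie far apart on the same chromosome. Adh1 overlaps Gm16559 over 9291 bases, Lypd1 overlaps Gpr39 over 6241 bases and Vopp1 overlaps Lancl2 over 11633 bases. Whether strand was used in counting is not given in the sources used here, so reads of these pairs may not have been told apart. The partners were low: Gm16559 was at most 2.30 CPM in a set, Gpr39 at most 0.249 CPM and Lancl2 at most 21.1 CPM. Of the 31-base words of the Fabp5 transcripts, 9.27% also occur in transcripts of other genes, and for Lypd1 the share was 18.1%. The gene that shared the largest number was Gm6166 for Fabp5 (of 21 sharing genes) and Gpr39 for Lypd1 (of 3688). Fabp5 and Lypd1 reads are thus the least certain of the 6.

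The 250 bases before the RefSeq start (GRCm38.p6, RefSeq sequences) are shown for the 5 members listed in that table, because genes that sit in the same cells can be compared for what their promoters hold. No window is shown for Fabp5. Adh1, at chr3:138277335-138277584 on the plus strand, starts inside the GENCODE interval of the gene. Lypd1 is at chr1:125912929-125913178 on the minus strand (the outermost of 3 listed starts), Cbln4 at chr2:172043467-172043716 on the minus strand, Fam221a at chr6:49367489-49367738 on the plus strand and Vopp1 at chr6:57825126-57825375 on the minus strand. The Lypd1 and Vopp1 windows also run partly into the GENCODE interval of their gene, so their starts lie inside it too. Sequences run 5′ to 3′ towards the start, and capitals mark matches to the motifs named after them.
Adh1: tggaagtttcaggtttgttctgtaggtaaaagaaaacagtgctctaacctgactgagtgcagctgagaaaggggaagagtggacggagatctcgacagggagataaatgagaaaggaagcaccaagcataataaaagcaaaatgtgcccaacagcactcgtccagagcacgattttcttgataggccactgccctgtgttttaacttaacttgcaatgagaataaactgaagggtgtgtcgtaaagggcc
Lypd1: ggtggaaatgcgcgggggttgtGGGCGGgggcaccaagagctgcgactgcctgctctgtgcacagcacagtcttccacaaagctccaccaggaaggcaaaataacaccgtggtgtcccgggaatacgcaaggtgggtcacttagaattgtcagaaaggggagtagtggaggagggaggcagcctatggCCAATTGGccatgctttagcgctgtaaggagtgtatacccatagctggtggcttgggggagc
Cbln4: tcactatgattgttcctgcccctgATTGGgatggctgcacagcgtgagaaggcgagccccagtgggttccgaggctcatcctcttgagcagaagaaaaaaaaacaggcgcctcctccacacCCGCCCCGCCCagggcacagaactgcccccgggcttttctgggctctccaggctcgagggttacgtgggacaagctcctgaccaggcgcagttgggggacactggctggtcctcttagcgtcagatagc
Fam221a: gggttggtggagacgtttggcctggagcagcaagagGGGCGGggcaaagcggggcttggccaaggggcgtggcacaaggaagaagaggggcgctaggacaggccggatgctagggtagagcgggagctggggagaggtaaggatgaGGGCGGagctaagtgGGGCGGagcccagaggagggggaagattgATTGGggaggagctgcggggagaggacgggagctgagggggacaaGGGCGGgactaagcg
Vopp1: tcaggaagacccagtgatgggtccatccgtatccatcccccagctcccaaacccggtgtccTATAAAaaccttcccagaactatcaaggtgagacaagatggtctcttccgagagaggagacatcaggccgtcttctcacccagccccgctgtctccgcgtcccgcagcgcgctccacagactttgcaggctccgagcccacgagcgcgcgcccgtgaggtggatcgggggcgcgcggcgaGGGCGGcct
The motifs searched on both strands were the octamer of POU factors (ATGCAAAT), the TATA box (TATAAA), the CCAAT box (CCAAT), the GC box (GGGCGG), the AP-1 site (TGANTCA) and the nuclear receptor half-site (AGGTCA). A GC box was found in 4 of the 5 windows, with 4 of them in Fam221a, against 32.7% of 32851 windows of all genes. A CCAAT box was found in 3 of 5, against 33.8% of all windows, and in Lypd1 it occurs on both strands as overlapping matches. The pair of GC boxes in Cbln4 also overlap. Vopp1 holds a TATA box, which 12.4% of all windows hold. None of the 5 holds the octamer, the AP-1 site or the half-site, which 1.6%, 6.75% and 14% of all windows hold, and Adh1 holds none of the 6 motifs. GC content was 44.8% for Adh1, 57.6% for Lypd1, 60.8% for Cbln4, 66.4% for Fam221a and 63.6% for Vopp1, beside a median of 52.4% over all windows. The 5 windows thus share no motif of those searched, and a match is a description and not a shown binding site.

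Adh1 reads were spread unevenly over cells. Over the summed reads of a set it stood at 434 CPM (counting interval 429 to 439) in the cells labelled Aire-/- and 396 CPM (391 to 402) in WT batch 2, against 205 CPM (202 to 208) in June29 and 38.1 CPM (35.7 to 40.5) in June5. The lowest cell of every set had 0 reads. The median cell stood at 0.835 CPM in the cells labelled Aire-/-, 1.59 in WT batch 2, 0 in June29 and 0 in June5, and the highest at 7071, 7081, 4882 and 1249 CPM. A few cells thus carried the level: 4 cells held 50% of the Adh1 reads in each batch 2 set, and 2 cells did so in each batch 1 set. A cell was called positive with 5 or more reads, which 21 of 96 cells labelled Aire-/- (21.9%, exact interval 14.1 to 31.5), 31 of 89 WT batch 2 cells (34.8%, 25.04 to 45.7), 19 of 87 June29 cells (21.8%, 13.7 to 31.98) and 4 of 29 June5 cells (13.8%, 3.89 to 31.7) met. These intervals overlap. Adh1 also had a layer of 1 to 4 reads in 29, 17, 16 and 2 cells of the sets in the same order, more than any other member in the cells labelled Aire-/-, and the only no-cell well analysed held 13 Adh1 reads.

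Fabp5 rested on a single cell in each batch 2 set. Its level was 159.2 CPM in the cells labelled Aire-/- and 163.8 CPM in WT batch 2, against 8.92 CPM in June29 and 8.43 CPM in June5. The highest cell held 68.6% of the reads in the cells labelled Aire-/- (4193 CPM) and 81.01% in WT batch 2 (8421 CPM). Without those cells the levels were 51.3 and 31.6 CPM. The WT batch 2 cell had 5 or more reads of 6 of 8 corneocyte-like markers and of only 4 of 30 tuft core markers, with 0.00443% mitochondrial reads. The other, labelled Aire-/-, had 7 of 8 markers of Aire-expressing medullary epithelium and 24 of 30 tuft core markers. Beyond those cells Fabp5 was spread at low level, with 39 positive cells of 96 labelled Aire-/- (40.6%, 30.7 to 51.1) and 27 of 89 in WT batch 2 (30.3%, 21.03 to 40.99), against 12 of 87 in June29 (13.8%, 7.33 to 22.9) and 3 of 29 in June5 (10.3%, 2.19 to 27.4). Its positive cells had a median of 77.7, 104.1, 28.6 and 89.2 CPM in that order.

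Lypd1 was the lowest member. It stood at 36.5 CPM in the cells labelled Aire-/- and 24.1 CPM in WT batch 2, against 6.02 CPM in June29 and 3.20 CPM in June5. The lowest and the median cell had 0 reads in every set, and the highest stood at 581, 247, 115.2 and 197 CPM in that order. Positive cells numbered 18 of 96 (18.8%, 11.5 to 28.005), 18 of 89 (20.2%, 12.5 to 30.1), 10 of 87 (11.5%, 5.65 to 20.1) and 6 of 29 (20.7%, 7.99 to 39.7), so the share in June5 was near that in batch 2 while the level was lower. Thinned to equal reads the shares were 20.2%, 20.3%, 7.06% and 8.70%, so that nearness was lost. The median positive cell had 124.2 CPM in the cells labelled Aire-/-, 78.1 in WT batch 2, 48.4 in June29 and 24.2 in June5.

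Cbln4 was the member in which the genotypes stood apart. It reached 190.4 CPM in the cells labelled Aire-/- against 54.5 CPM in WT batch 2, and 18.5 CPM in June29 and 109.2 CPM in June5. Positive cells numbered 34 of 96 labelled Aire-/- (35.4%, 25.9 to 45.8), against 10 of 89 in WT batch 2 (11.2%, 5.52 to 19.7), 6 of 87 in June29 (6.90%, 2.57 to 14.4) and 6 of 29 in June5 (20.7%, 7.99 to 39.7). The interval of the cells labelled Aire-/- lay above those of WT batch 2 and June29 and overlapped that of June5. Within positive cells the level was alike in both batch 2 sets, with medians of 473 CPM in cells labelled Aire-/- and 536 CPM in WT cells, and maxima of 1812 and 1045 CPM. The batch 2 sets thus stood apart in the share of positive cells and lay close in the median of a positive cell, which rests on 10 cells in WT batch 2.

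Fam221a was the most widely shared member across sets. It stood at 249.7 CPM in the cells labelled Aire-/- and 262 CPM in WT batch 2, against 98.2 CPM in June29 and 102.7 CPM in June5. Its positive cells numbered 38 of 96 (39.6%, 29.8 to 50.1), 34 of 89 (38.2%, 28.1 to 49.1), 24 of 87 (27.6%, 18.5 to 38.2) and 11 of 29 (37.9%, 20.7 to 57.7). The highest cell had 2565, 1913, 1661 and 674 CPM in the same order. Vopp1 stood at 94.3 CPM in the cells labelled Aire-/- and 58.1 CPM in WT batch 2, against 28.3 CPM in June29 and 59.4 CPM in June5. It was positive in 25 of 96 (26.04%), 20 of 89 (22.5%), 14 of 87 (16.1%) and 7 of 29 cells (24.1%), and 1 June5 cell held 69.9% of that set's Vopp1 reads. Without that cell June5 stood at 19.1 CPM.

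Per kilobase of the longest coding transcript, a scale on which genes can be set beside each other, the order of the set levels in the cells labelled Aire-/- was Adh1 (291 CPM per kb), Fabp5 (161.3), Fam221a (91.5), Cbln4 (65.6), Vopp1 (20.5) and Lypd1 (5.64). WT batch 2 had the same order, at 266, 166.003, 95.9, 18.8, 12.7 and 3.73 CPM per kb. In June29 Adh1 (137.4) was followed by Fam221a (35.97), Fabp5 (9.03), Cbln4 (6.38), Vopp1 (6.16) and Lypd1 (0.931), where Cbln4 and Vopp1 lay side by side. In June5 Cbln4 (37.63) and Fam221a (37.62) led, ahead of Adh1 (25.5), Vopp1 (12.9), Fabp5 (8.55) and Lypd1 (0.495). With 1 pool a set no spread between animals stands behind these orders, and the place of Fabp5 in batch 2 depends on the 2 cells described above.

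**Figure D1:**
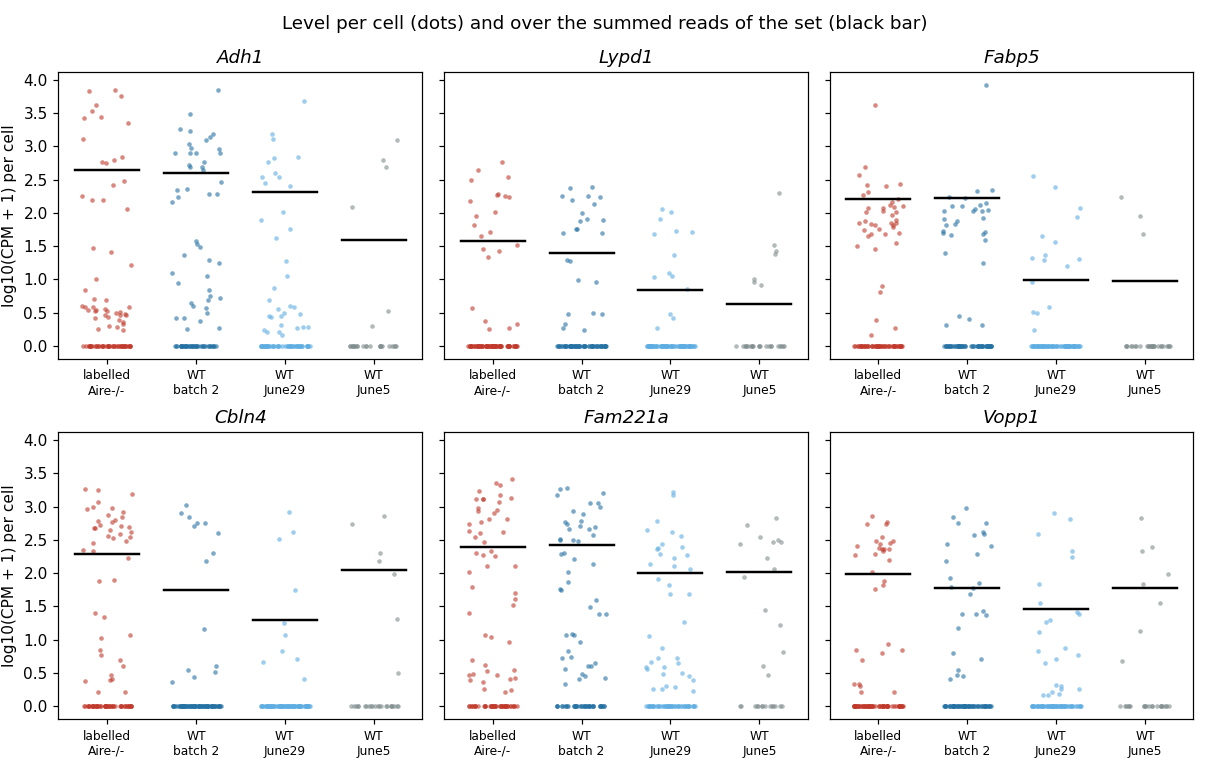
Level of each member in every kept cell (dots, log10 of CPM plus 1) in the cells labelled Aire-/- (n = 96), WT batch 2 (n = 89), June29 (n = 87) and June5 (n = 29), with the level over the summed reads of the set as a black bar. Many cells sit at 0 in every panel (the median cell is at 0 in all sets for Lypd1, Fabp5, Cbln4 and Vopp1), and in batch 2 the Fabp5 bar lies near the top of its cloud because 1 cell holds 68.6% of the reads in the cells labelled Aire-/- and 81.01% in WT batch 2.

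The first comparison asked how the cells labelled Aire-/- differed from WT cells within batch 2. Cbln4 was higher in the cells labelled Aire-/-, with a log2 fold of 1.79 (1 CPM added to both sides) and shares 24.2 points apart, and the other 5 members did not pass the size rule. To pass, the set with the higher level must reach 20 CPM, the log2 fold must be 1 or more, and the share of positive cells must differ the same way by 15 points or more. The rule is no test. Of 8260 genes, 1.02% were higher by the rule and 0.4% lower, so 1 of 6 members stands beside that background. The fold of Cbln4 was 1.46 without the highest cell, and it passed the rule under every alternative run, with folds from 1.46 to 2.42. On plate 1 it stood at 200.5 CPM in cells labelled Aire-/- against 72.2 CPM in WT cells, with 18 of 48 and 7 of 48 positive cells. On plate 2 it stood at 180.1 against 32.8 CPM, with 16 of 48 and 3 of 41 positive cells. Among cells with Xist reads alone, chosen after the data were seen, it stood at 185.5 CPM with 30 of 86 positive cells labelled Aire-/-, against 59.4 CPM with 4 of 43 positive WT cells.

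None of the other 5 members passed the rule with all cells. Adh1 had a log2 fold of 0.13 with shares that ran the other way (21.9% of cells labelled Aire-/- and 34.8% of WT cells), and the direction of its fold differed between plates. On plate 1 Adh1 stood at 474 CPM in cells labelled Aire-/- against 203 CPM in WT cells, and on plate 2 at 393 against 632 CPM. The log2 fold was -0.07 for Fam221a. It was 0.58 for Lypd1, and -0.03 without the highest cell. It was 0.69 for Vopp1, 0.11 as a mean over per-cell CPM, and 1.96 among cells with Xist reads alone (100.5 against 25.1 CPM), without passing the rule. The fold of Fabp5 was -0.04 with all cells, 0.68 without the top Fabp5 cell of each set and 2.64 among cells with Xist reads alone, where it passed the rule, so its difference between genotypes turns on which cells enter. That Xist subset leaves out the WT cell with 8421 CPM. In the same comparison 4 of 8 measured MHC class II genes (H2-Aa, H2-Eb1, Cd74 and H2-DMa) and Aire itself were higher in the cells labelled Aire-/-, and their part in the Cbln4 difference was not tested.

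**Figure D2:**
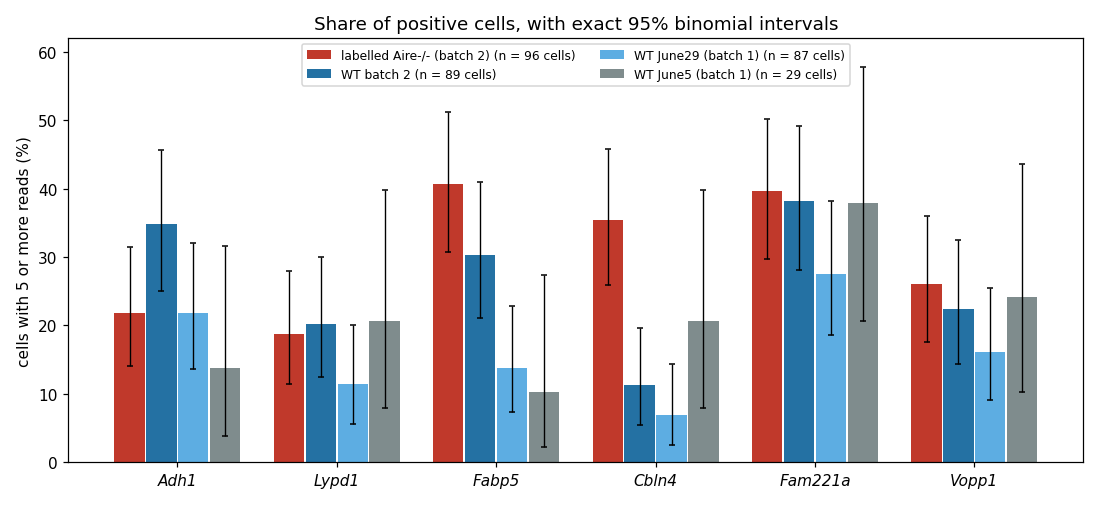
Share of cells with 5 or more reads of each member (bars, percent) with exact 95% binomial intervals, in the cells labelled Aire-/- (n = 96), WT batch 2 (n = 89), June29 (n = 87) and June5 (n = 29). Cbln4 stands at 35.4% in the cells labelled Aire-/- against 11.2% in WT batch 2, and Fabp5 is at 40.6% and 30.3% in batch 2 against 13.8% and 10.3% in batch 1.

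The second comparison set WT cells of batch 2 beside WT cells of batch 1, in which day, plate, depth and sex-linked reads cannot be told apart from batch. Against June29 all 6 members had a positive log2 fold: 4.06 for Fabp5, 1.84 for Lypd1, 1.51 for Cbln4, 1.40 for Fam221a, 1.01 for Vopp1 and 0.95 for Adh1. Their median was 1.46, beside 0.16 over 8506 genes. Fabp5 alone passed the size rule, against 3.36% of genes called higher and 2.67% lower, and with the wells of the authors' score table in place of the cell filter no member passed (Fabp5 log2 fold 3.91). Its fold was 1.72 without the highest WT batch 2 cell and 2.09 without the highest Fabp5 cell of both sets, and its shares were 16.5 points apart, just past the 15 points asked for. Adh1, with shares 12.99 points apart, lay just outside. WT batch 2 cells had fewer reads than June29 cells. Thinned to 231697 reads per cell, Adh1 was positive in 35.4% of 79 WT batch 2 cells against 17.6% of 85 June29 cells, and passed the rule with a log2 fold of 1.29. After thinning the shares were 31.6% against 10.6% for Fabp5, 20.3% against 7.06% for Lypd1, 11.4% against 4.71% for Cbln4, 37.97% against 23.5% for Fam221a and 21.5% against 11.8% for Vopp1. Among cells with Y-linked reads alone, no member passed: Fabp5 stood at 31.01 CPM in 31 WT batch 2 cells against 7.96 CPM in 67 June29 cells, with shares of 29.03% against 16.4%, and Adh1 ran the other way, at 176.8 against 246 CPM.

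Against June5 the picture was split. Adh1 (log2 fold 3.35) and Fabp5 (4.13) were higher in WT batch 2 and passed the rule, against 1.88% of 8553 genes called higher and 3.95% lower. Without the highest WT batch 2 cell the Fabp5 fold was 1.79, and by the mean of per-cell CPM the Adh1 fold was 1.88, and both still passed. Lypd1 had a log2 fold of 2.58 at nearly equal shares (20.2% against 20.7%), and Fam221a one of 1.34 at like shares (38.2% against 37.9%). After thinning those shares were 20.3% against 8.70% for Lypd1 and 37.97% against 26.1% for Fam221a, and by the mean of per-cell CPM the folds were 0.97 and 0.91. Cbln4 (-0.99) and Vopp1 (-0.03) ran the other way or not at all. The Cbln4 value was -0.33 without the highest June5 cell, -0.28 after thinning and -0.09 by the mean of per-cell CPM. The Vopp1 value was 1.56 without the June5 cell that held most of its reads. The median over members was 1.96, beside 0.08 over all genes tested. Without cells that carry haematopoietic markers Adh1 did not pass (log2 fold 1.66) and Fabp5 did (5.79). June5 had 29 cells, and 4 and 3 positive cells stand behind its Adh1 and Fabp5 values. Both comparisons share the WT batch 2 cells.

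Co-detection was weak. With all reads it was strongest, by the median over sets, between Lypd1 and Vopp1 and between Adh1 and Fam221a. It was measured within each set by phi, the correlation of being positive across cells, which is 0 where a pair shares as many cells as the product of its shares gives. The phi of Lypd1 with Vopp1 was 0.26 in the cells labelled Aire-/-, 0.20 in WT batch 2, 0.23 in June29 and 0.31 in June5. Thinned to equal reads it was 0.24, 0.12, 0.04 and 0.21 in that order. Summed over the sets 23 cells held both with all reads, where the products of the shares sum to 11.8. The phi of Adh1 with Fam221a was 0.24, 0.15, 0.23 and 0.51 in that order, with 41 cells that held both beside 26.9 from the products. Thinned it was 0.19, 0.18, 0.25 and 0.52. In the cells labelled Aire-/-, 13 of 21 Adh1-positive cells (61.9%) held Fam221a, against 25 of 75 Adh1-negative cells (33.3%), and in June5 all 4 Adh1-positive cells held it, against 7 of 25 without Adh1 (28%).

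Of the 15 pairs, 7 had a phi above 0 in all 4 sets. Over 6363528 pairs of genes with a like share of positive cells the figure was 23.2%, cells of a set sharing their library preparation and depth, and the members were chosen with co-detection in view, so nothing is read from the count. The member median was 0.158 in the cells labelled Aire-/- and 0.155 in WT batch 2, beside 0.0325 and 0.0470 over all such pairs. In June29 it was 0.0712 and in June5 0.00806, beside 0.0891 and 0.0994, so in batch 1 the member median lay below that of all such pairs. After thinning 4 pairs were above 0 in all sets: Adh1 with Fam221a, Adh1 with Vopp1 and Lypd1 with Vopp1, which were among the 7, and Fam221a with Vopp1, which was not. With 1 read or 10 reads asked for there were 3 pairs each, Lypd1 with Vopp1 being the pair found under all 4 settings.

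The pairs of Cbln4 and of Fabp5 went both ways. Lypd1 with Cbln4 (phi from 0.04 to 0.26, 17 cells with both beside 10.3 from the products), Cbln4 with Vopp1 (0.004 to 0.31) and Adh1 with Fabp5 (0.02 to 0.19) were above 0 in all 4 sets. The phi of Adh1 with Cbln4 was 0.03 in the cells labelled Aire-/- and -0.11, -0.14 and -0.20 in WT batch 2, June29 and June5, and no batch 1 cell held both. The phi of Fabp5 with Cbln4 was 0.01 in the cells labelled Aire-/- and -0.16, -0.11 and -0.17 in the WT sets. In WT batch 2 only 1 of 27 Fabp5-positive cells held Cbln4, against 9 of 62 cells without Fabp5, which are small numbers. Fabp5 with Lypd1 and Fabp5 with Vopp1 were above 0 in both batch 2 sets (0.15 and 0.09 in the cells labelled Aire-/-, 0.15 and 0.05 in WT batch 2) and below 0 in both batch 1 sets. In batch 2, where more cells were positive, a cell with Lypd1 held on average 2.67 of the other 5 members against 1.40 in a cell without it among those labelled Aire-/-, and 2.22 against 1.15 in WT batch 2, the widest gap of the 6 members in both sets.

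**Figure D3:**
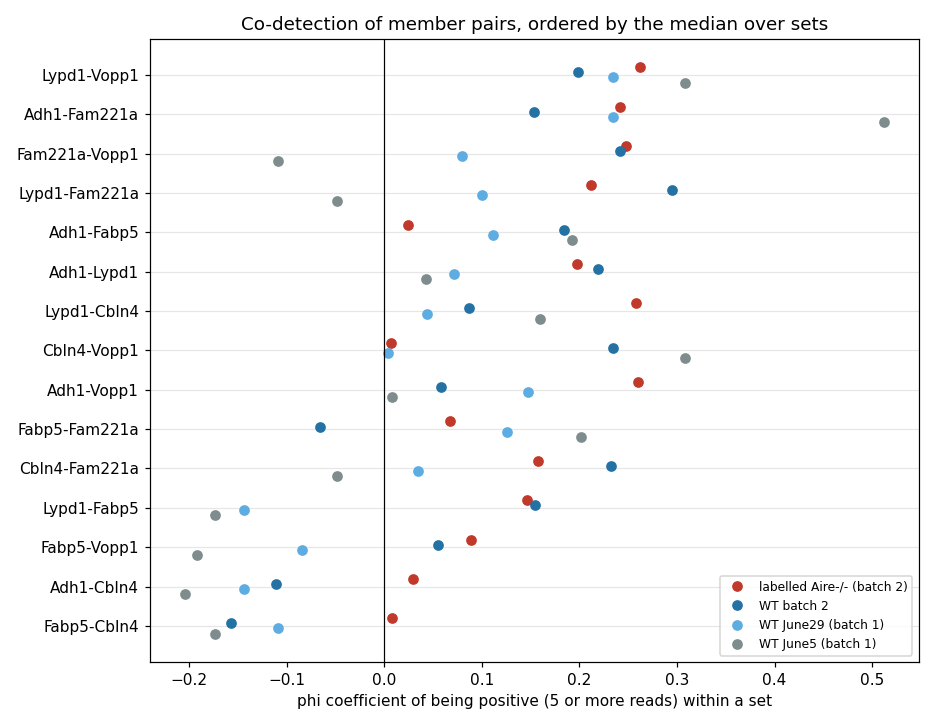
Phi coefficient of each of the 15 member pairs within each set (dots, 1 colour a set), ordered by the median over the 4 sets, with 0 marked by a line. All reads were used. Lypd1 with Vopp1 lies between 0.20 and 0.31 in all sets (0.04 to 0.24 after thinning, not shown), while Adh1 with Cbln4 and Fabp5 with Cbln4 lie below 0 in all 3 WT sets.

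Counted per cell, both ends held more cells than the product of the shares gives. In the cells labelled Aire-/-, 20 of 96 held no member, 13 held 4 and 2 held all 6, where the product of the shares gives 10.4 cells with none and 5.68 with 4. In WT batch 2, 22 of 89 held none, 9 held 4 and 1 held 5, beside 13.7 with none and 3.15 with 4. In June29 35 of 87 held none and 2 held 4, beside 29.4 with none, and in June5 10 of 29 held none, beside 6.64, and no cell held 4 (0.481 from the product). Cells with 3 or more members made up 30.2% (21.2 to 40.4) of those labelled Aire-/- and 25.8% (17.1 to 36.2) of WT batch 2, against 8.05% (3.30 to 15.9) of June29 and 17.2% (5.85 to 35.8) of June5. After thinning these were 29.8%, 24.1%, 5.88% and 4.35%, and the June5 value was 1 cell beside 1.17 from the product.

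**Figure D4:**
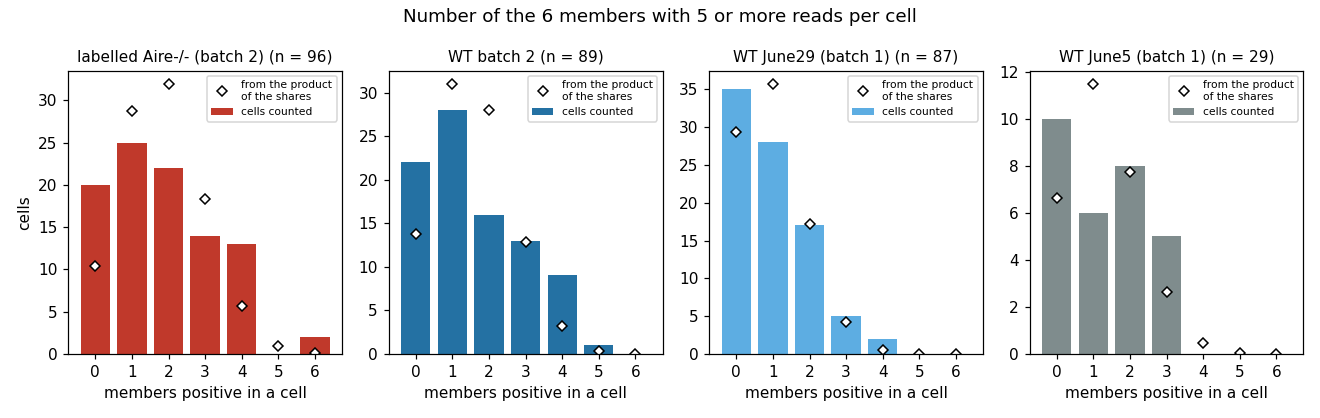
Number of cells (bars) by how many of the 6 members had 5 or more reads, for the cells labelled Aire-/- (n = 96), WT batch 2 (n = 89), June29 (n = 87) and June5 (n = 29), with the numbers that the product of the shares gives as diamonds. Cells with none lie above the diamond in all 4 sets (20 against 10.4 in the cells labelled Aire-/-), and both batch 2 sets hold more cells with 4 members than the product gives. The members were chosen with co-detection in view, so nothing is read from this excess.

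The members' sum was then set beside all other genes, by the mean of their z-scored levels in a cell (the member score) and Spearman's rho across the 271 thinned cells, taken within each set. These correlations are across cells of 1 pool and are descriptions without a p. The 12 genes with the highest weakest rho over the 4 sets, among 5978 genes found widely enough, were Tmem176a, Tmem176b, B2m, Laptm5, Gm12854, Ldha, Ahcyl2, Sdc4, Fndc7, Alg6, Egln2 and Nrg4. Tmem176a, a membrane protein that is also made by antigen-presenting cells, had a rho of 0.33 in the cells labelled Aire-/-, 0.51 in WT batch 2, 0.36 in June29 and 0.49 in June5. Its neighbour in the genome Tmem176b had 0.38, 0.59, 0.30 and 0.40 in that order, and B2m, the light chain of MHC class I, 0.34, 0.39, 0.26 and 0.44. Member by member, Tmem176a had its highest weakest rho with Fam221a (0.29 to 0.42 over the sets). It ran from 0.03 to 0.30 with Cbln4 and from 0.02 to 0.43 with Vopp1. With Adh1, Lypd1 and Fabp5 it fell below 0 in a set (lowest -0.03, -0.06 and -0.05). A rho above 0.2 with the score in all 4 sets was found for 0.151% of the genes and above 0 in all 4 for 16%. The score had a rho from -0.04 to 0.22 with gene reads and from -0.07 to 0.34 with the number of genes found in a cell. The share of mitochondrial reads was lower where the score was higher in all 4 sets (rho from -0.25 to -0.13). The part of these measures was not tested.

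Of the 6 genes that ran most against the members, 4 belong to taste signalling (Gnb3, Rgs21, Tas2r138 and Tas2r105), and the other two were Commd1 and Btbd11. Gnb3, the G protein beta subunit of taste cells, had a rho of -0.50 in the cells labelled Aire-/-, -0.44 in WT batch 2, -0.36 in June29 and -0.46 in June5. Rgs21, a regulator of G protein signalling of taste cells, had -0.37, -0.35, -0.37 and -0.34, and the bitter receptors Tas2r105 and Tas2r138 lay between -0.43 and -0.28 and between -0.37 and -0.29. A rho below -0.2 in all 4 sets was found for 0.167% of the genes and below 0 in all 4 for 6.37%. The number of Tas2r genes with reads in a cell, of 35, had a rho of -0.40, -0.31, -0.23 and -0.30 with the score in the same order of sets. Member by member, Gnb3 ran below 0 in all 4 sets with Adh1, Lypd1, Cbln4, Fam221a and Vopp1, and Fabp5 was the exception (rho from -0.08 to 0.33).

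In thinned cells labelled Aire-/-, the 25 cells with 3 or more members had a median of 716 CPM of Gnb3 and reads of 2 Tas2r genes, against 6565 CPM and 11 Tas2r genes in the 15 cells with none. In WT batch 2 the 19 cells with 3 or more members had a median of 176.955 CPM of Gnb3, against 3172 CPM in the 18 cells with none, and medians of 0 and 1.5 Tas2r genes. Tmem176a went the other way, with 2279 against 699 CPM in the cells labelled Aire-/- and 3198 against 827 CPM in WT batch 2. The ranges of these cells overlapped for both genes: a cell with 3 or more members reached 8192 CPM of Gnb3 among those labelled Aire-/-. Gnb3 and Tmem176a were the genes ranked lowest and highest by rho with the score of these members in the same cells. Their contrast was thus fixed by that choice and adds nothing to it. Cells with 1 or 2 members had medians of 2.5 Tas2r genes among 44 labelled Aire-/- and 2 among 42 of WT batch 2, the latter above cells with none. June29 had only 5 cells with 3 or more members and June5 only 1.

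**Figure D5:**
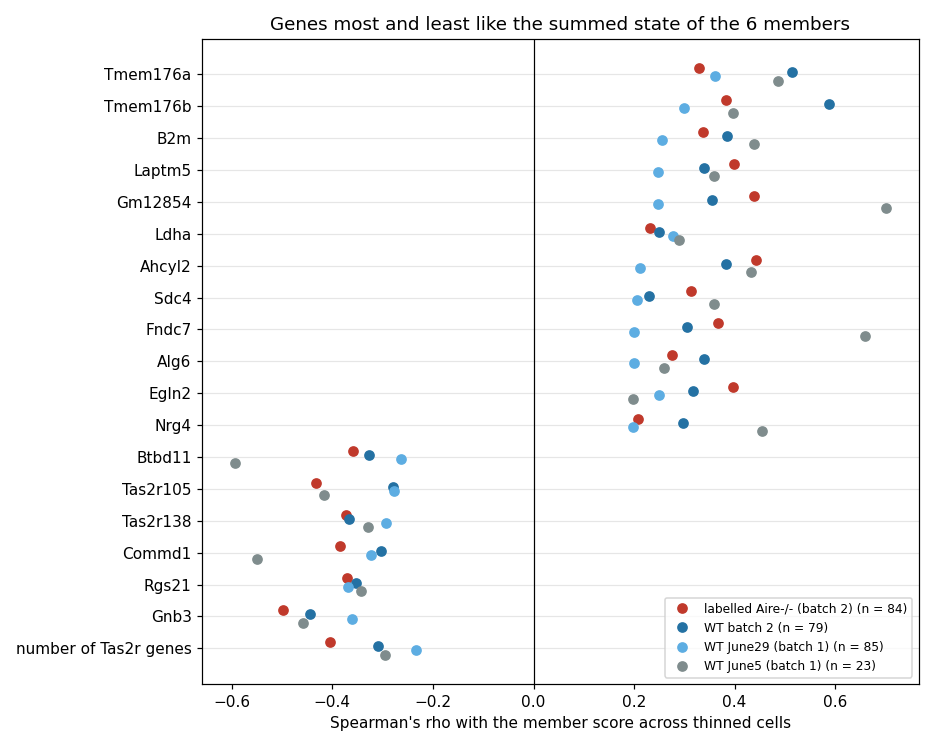
Spearman's rho of the member score with the 12 genes most like it, the 6 least like it and the number of Tas2r genes (dots, 1 colour a set), across thinned cells of each set (n = 84 labelled Aire-/-, 79 WT batch 2, 85 June29 and 23 June5). Tmem176a lies between 0.33 and 0.51 and Gnb3 between -0.50 and -0.36.

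The tuft core list was split. Of its 29 genes found widely enough, 12 had a rho above 0 with the member score in all 4 sets and 4 had one below 0. Of all 5978 genes, 16% were above 0 and 6.37% below 0 in all 4 sets. The tuft core genes above 0 included Dclk1, Sh2d7, Chat, Alox5, Alox5ap, Ptgs1, Rgs13, Bmx, Gfi1b, Il17rb and Krt18. Among them Alox5ap, the leukotriene pathway protein, ranged from 0.17 to 0.40, Il17rb, the receptor of interleukin-25, from 0.19 to 0.41, and Rgs13, a regulator of G protein signalling, from 0.14 to 0.49. The tuft core genes below 0 were the taste cascade genes Gnat3 (-0.54 to -0.07), Gng13 (-0.31 to -0.03), Plcb2 (-0.32 to -0.13) and Itpr3 (-0.41 to -0.15), which code for G protein subunits, phospholipase C and the calcium channel. Trpm5, the channel at the end of that cascade, was mixed, with a rho of -0.05, -0.12, -0.17 and 0.43. Of 7 MHC class II genes, 5 had a rho above 0 in all sets, beside the 16% of all genes. H2-Eb1, which reached the highest value of them, ran from 0.06 to 0.48. In June29 Cd74 stood at -0.13 and H2-Aa at -0.02. The summed class II list had a rho of 0.43 in the cells labelled Aire-/-, 0.26 in WT batch 2, 0.04 in June29 and 0.18 in June5. Members did not share their nearest genes. For Adh1 these were Gm12854 (weakest rho 0.20) and Cpt1a (0.19), for Lypd1 S100a11 (0.30) and Avpi1 (0.24), for Fabp5 Derl2 and Atp6v0e (0.21 each), for Cbln4 Skap2 (0.26) and Slco4a1 (0.24), for Fam221a Tmem176a (0.29) and Tmem176b (0.24), and for Vopp1 Sypl and Gbf1 (0.16 each).

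Genes of the pathways in which the members are known were set against the size rule, which few of all genes passed. Of all genes tested, 1.02%, 3.36% and 1.88% were higher and 0.4%, 2.67% and 3.95% lower in the 3 comparisons named next. With so few genes measured in a list, nothing is read from a list in which none passed. Of 22 other retinoid enzymes and carriers, 5, 4 and 3 were high enough to be measured in the 3 comparisons (labelled Aire-/- over WT batch 2, WT batch 2 over June29 and over June5), and none passed the rule. Adh5, the glutathione-dependent alcohol dehydrogenase, was the only other Adh gene above 5 CPM, at 198 CPM in the cells labelled Aire-/-, 154.8 in WT batch 2, 122.5 in June29 and 125.9 in June5, and positive in 46.2% of all cells. Aldh1a2, an enzyme that makes retinoic acid, was at 22.1, 6.56, 0.146 and 7.56 CPM in that order, with 2, 2, 1 and 1 positive cells. Of 9 retinoid and fatty acid receptors 2 were measured and none passed, and Rara, a retinoic acid receptor at 30.9 to 36.9 CPM, had a rho below 0 with the score in all 4 sets (-0.22 to -0.05).

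Of 23 genes of fatty acid handling, 18 were measured in cells labelled Aire-/- against WT batch 2, where Cpt2, of mitochondrial fatty acid import, was higher (131.03 against 63.3 CPM, log2 fold 1.04). Against June29 19 were measured, and Acadl, a dehydrogenase of fatty acid oxidation (128.9 CPM in WT batch 2 against 45.4 CPM in June29), and Pnpla2, a triglyceride lipase (162.7 against 47.2 CPM), were higher in WT batch 2. None of 18 passed against June5. No list gene of the 3 groups above was lower by the rule in any of the 3 comparisons. Of all genes 1.02%, 3.36% and 1.88% were higher and 0.4%, 2.67% and 3.95% lower, and these list counts are descriptions. The list medians of fatty acid handling were -0.09, 0.31 and -0.10, beside -0.03, 0.16 and 0.08 over all genes. Of 19 Ly6 and nicotinic receptor genes, 3, 2 and 2 were measured and none passed. Ly6e, a Ly6 protein, was widely found (437, 632, 301 and 893 CPM) and had a rho of 0.36, 0.35, 0.12 and 0.49 with the score, and Chrna10, a nicotinic receptor subunit, stood at 60.7, 57.1, 29.7 and 33.02 CPM. Of 13 partners of cerebellins and their relatives 4 were measured in each comparison, and Neo1, neogenin, was higher in WT batch 2 than in June5 (33.7 against 3.24 CPM) and passed in neither other comparison.

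Apart from Adh5, given above, the close relatives named here were low or rested on few cells. Cbln1, Cbln2, Cbln3, Adh4, Adh6a and Adh7 were all under 5 CPM in every set. Among the other fatty acid binding proteins Fabp4 stood at 34.2, 29.3, 15.1 and 2.36 CPM and was positive in 11, 8, 7 and 1 cells, and Fabp12 reached 28.8 CPM in WT batch 2 through 1 cell with 98.4% of its reads. Of the Lypd genes, Lypd3 stood at 10.99, 44.5, 33.4 and 15.2 CPM, with 69.9% of the WT batch 2 reads in 1 cell, and Lypd8 at 37.99 CPM in WT batch 2 with 92.3% in 1 cell. Fam221b, the paralogue of Fam221a, ran against it between batches. It stood at 2.25 CPM in the cells labelled Aire-/- and 2.13 CPM in WT batch 2, against 16.4 CPM in June29 and 19.9 CPM in June5, with 13 of 96 and 4 of 89 positive cells against 68 of 87 and 22 of 29. The highest cell had 13.1 and 16.3 CPM in the batch 2 sets, against 92.2 and 92.9 CPM in the batch 1 sets. The highest cell held at most 10.02% of its reads in a set. After thinning the shares were 0 of 84, 0 of 79, 38.8% of 85 and 47.8% of 23 cells. It lies under the 20 CPM asked for and thus outside the rule, it was singled out after its values were seen, and its locus overlaps Tmem8b and Gm12481, so reads of these genes may not have been told apart.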

How the data were processed

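Single sorted cells were read by Smart-seq2, and the authors deposited whole-number read counts per gene, without molecular identifiers. Per the submitters' processing notes the tools included STAR, Subread, featureCounts 1.5.3 and R 3.4.0 with GRCm38; the strand setting of counting is not given in the sources used here. The authors' deposited table of a score per well served only as an alternative list of wells. Of 48795 entries, 360 without a gene name stayed out of all steps. The cell filter kept wells with 10000 gene reads or more, 1000 genes or more and up to 20% mitochondrial reads, and no doublet caller was run. Levels are summed reads of a set scaled to 1000000 gene reads (CPM). A cell was positive with 5 or more reads. To pass the size rule the higher level had to reach 20 CPM, the log2 fold (1 CPM added) had to reach 1, and shares had to differ the same way by 15 points. With 1 pool a set it is not a test. Thinning drew 231697 reads per cell, the 10th percentile of kept cells, and left out shallower cells. Exact 95% intervals (Poisson for levels, Clopper-Pearson for shares) cover counting error only, since reads are not independent molecules. The genes named beside the members were the 12 with the highest and the 6 with the lowest weakest rho with the member score, among genes positive in 10% of thinned cells of every set, the 2 nearest genes of each member, listed pathway genes that passed the size rule, and paralogues. Other pathway genes with values were chosen after their values were seen. The members and all lists were chosen with earlier results of these data known. Python 3.11.15, NumPy 2.4.6, pandas 2.3.3, SciPy 1.17.1, matplotlib 3.10.9 and GENCODE M21 were used, and the steps were tested on simulated data. Alternatives changed the scale, thinning, the reads for a positive cell, the floor, the wells, single cells and plates.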

Additional observations from a re-analysis of the deposited data

Results flagged for a closer look

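A pair of wells in batch 2 received 50 cells each and enter no comparison, and the number of cells that hold a gene and the RNA per cell cannot be told apart there. Their genotypes follow their titles, strains and the tables that hold them, but the description of each names the other genotype's table, so the labels do not settle which well is which. They were set beside the limit that a count of 0 allows in the batch 1 well that received no cell, 303 CPM (3 of 9892 gene reads). Fam221a stood above that limit in the well labelled Aire-/-, at 429.9 CPM (counting interval 376 to 489), against 291 CPM in the well labelled WT. Fabp5 stood above it in the well labelled WT, at 387 CPM (343 to 435), where the well labelled Aire-/- had 55.6 CPM (37.5 to 79.4). The well without a cell held 13 Adh1 reads and none of the other 5 members. It had 9892 gene reads, and 99.7% of its reads were spike-in, so those 13 reads correspond to 1314 CPM (699.8 to 2247).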

How the results depend on the processing

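Cbln4 passed the size rule in cells labelled Aire-/- over WT batch 2 under every alternative run. No member called with all cells changed sign in the comparison that called it. Members called only in an alternative did change sign between runs. They were Fabp5 in cells labelled Aire-/- over WT batch 2 (log2 fold from -0.53 to 2.64) and Adh1 in WT batch 2 over June29 (-0.48 to 1.68). In cells labelled Aire-/- over WT batch 2, members past the rule numbered 1 with all cells and 2 (with Fabp5) among cells with Xist reads. Those cells keep the top Fabp5 cell labelled Aire-/- and leave out the top WT one. Over June29 WT batch 2 had 1 member (Fabp5), 2 after thinning (with Adh1), 0 with the wells of the score table and 0 among cells with Y-linked reads. Over June5 it had 2, and 1 without cells with haematopoietic markers. Genes past the rule, as a percentage of the 48435 named genes, came to 0.242 in cells labelled Aire-/- over WT batch 2, against 0.378 by the mean of per-cell CPM, 0.702 on plate 1, 0.861 on plate 2 and 0.648 among cells with Xist reads. Over June29 the value was 1.06, and 1.96 without a floor. Of those genes 286 of 513 were higher in WT batch 2, 615 of 766 after thinning, and 210 of 732 with 1 read for a positive cell. Over June5 the value was 1.03 (338 of 499 genes lower), 1.88 without a floor, 0.613 without the top cell of each gene in the higher set, and 1.66 (336 of 803 lower) without cells with haematopoietic markers. Pairs above 0 in all sets numbered 7, against 4 after thinning, 3 with 1 read and 3 with 10 reads. The cause of these changes was not tested. The runs without the top Fabp5 cells and within Xist or Y-linked cells were chosen after seeing the data. No paired analysis was possible because each set is 1 pool and no replicate numbers pair samples, and values within the shared plates of batch 2 stand in place of it. June5, with 29 cells, limits every share set beside it.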
